A study of Rattus norvegicus with 6 samples.

Results

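Axon guidance ligands and receptors were examined in 2 mural cell types of the rat brain cortex, the smooth muscle cells of arterioles (VSMCs) and the pericytes of the middle part of the capillary bed (mcPCs). Members were the listed genes whose symbols name a semaphorin, plexin, neuropilin, netrin, netrin-G protein, netrin receptor, repulsive guidance molecule, Slit, Robo, ephrin or Eph receptor, and 60 of the 14607 listed genes fit. Of these, 34 encode ligands and 24 encode receptors, and the remaining 2, Unc50 and Unc5cl, fit by name alone and belong to none of the families. A further 16 genes of the same families (Dcc, Efna3, Efna5, Epha3, Epha5, Epha6, Epha8, Epha10, Ephb2, Ntn5, Plxna4, Robo3, Robo4, Sema3d, Sema3e and Unc5a) were not analysed here.

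Polyadenylated RNA was sequenced from 3 VSMC and 3 mcPC samples, all from the cortex of male Sprague-Dawley rats aged 4 to 5 weeks, with the cortices of several animals pooled for each isolation. Each isolation was filtered into retained arterioles and a capillary filtrate, and only the arterioles were digested again, with Liberase TM and trypsin. Digestion and sorting therefore both differ with cell type. VSMCs were sorted positively from arterioles with a lectin after removal of CD31+ and CD11b+ cells, a fraction that may hold some ensheathing pericytes. mcPCs were the unlabelled cells of a capillary filtrate after depletion with CD31, CD11b, GLAST and O4 antibodies, so they were defined by what had been removed. The deposited values are the authors' means of each cell type, with no value for a single isolation. The standard errors and p-values that the authors deposited belong to their own comparison and were not used here, so the values below carry no error between isolations.

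Semaphorins signal through plexins, and secreted class 3 semaphorins mostly need a neuropilin as co-receptor. Netrins bind neogenin and the Unc5 receptors as well as DCC, repulsive guidance molecules bind neogenin, Slits bind Robos, and ephrins bind Eph receptors on touching cells. These families were named for steering growing axons, and the vessel wall uses them as well, for example ephrin-B2 and EphB4, which mark arterial and venous endothelium, and plexin D1, which restrains vessel sprouting.

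Levels within a cell type are given as the authors' mean TPM (a share of all transcripts, corrected for length). Differences between the cell types are given as the log2 ratio of mean DESeq2-normalized counts, mcPC over VSMC, and a gene was called higher in a cell type when the ratio passed 2-fold. Brackets give the 95% exact counting interval of the log2 ratio, which covers counting error only. No test between the cell types was made. On this scale the median log2 ratio of all genes was 0.01. Erythrocyte transcripts made up 55.0% of mean TPM in mcPCs and 0.736% in VSMCs, and the median log2 ratio of mean TPM over all genes was -1.79, so that a TPM value in mcPCs cannot be set directly against one in VSMCs.

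The labels were first compared with marker genes. The 8 smooth muscle genes, among them Acta2 and Myh11, were all higher in VSMCs (median log2 ratio -7.91, from 59.6 to 19824 TPM in VSMCs and from 0.117 to 22.7 TPM in mcPCs). Of 9 pericyte genes, 7 were higher in mcPCs (median 3.50), where the list had a median of 320.4 TPM. Reads assigned to the listed genes came to 48.0 M for each mcPC sample and 62.0 M for each VSMC sample on average.

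Guidance genes differed between the cell types in both directions. Of the 60 members, 30 were more than 2-fold higher in mcPCs (50%) and 16 in VSMCs (26.7%), and 14 lay within 2-fold. Among all genes 22.0% were that much higher in mcPCs and 13.9% in VSMCs. At 4-fold, 20 members (33.3%) were higher in mcPCs and 8 (13.3%) in VSMCs, against 12.4% and 5.72% of all genes. The median log2 ratio of the members was 0.93. This median turned to -0.88 on the plain ratio of mean TPM, where 14 members (23.3%) were higher in mcPCs and 30 (50%) in VSMCs, against 8.17% and 74.8% of all genes. It was -0.40 among the members with at least 0.8 TPM in VSMCs, where that of all genes was -0.11. The whole counting interval lay past 2-fold for 29 of the 30 members higher in mcPCs (not for Ntn3) and 14 of the 16 higher in VSMCs (not for Ntng1 and Unc5cl). Of these 46 members, 7 changed sign on the plain ratio of mean TPM (Sema3a, Sema4g, Plxna3, Ntn3, Robo1, Ephb3 and Ephb4, lower in mcPCs on that scale), and none changed sign on TPM relative to its median or on counts scaled with or without erythrocyte genes.

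Abundance of the called members was set beside that of all genes called the same way, and the levels were of the same order. Among the 16 members higher in VSMCs the median level was 44.7 TPM there and 2.95 TPM in mcPCs, whereas among the 30 members higher in mcPCs it was 0.504 TPM in VSMCs, against 1.15 TPM in mcPCs. For all genes higher in VSMCs the medians were 32.7 and 2.14 TPM in the same order, and for all genes higher in mcPCs 0.797 and 1.71 TPM. At least 5 TPM in the cell type where they were higher was reached by 13 of the 16 (81.2%) and by 7 of the 30 (23.3%), close to the 81.8% and 30.2% of all genes so called. Among the 38 members with at least 0.8 TPM in VSMCs, 11 (28.9%) were higher in mcPCs and 14 (36.8%) in VSMCs, against 13.1% and 15.8% of all genes at that level. Of the 22 members under 0.8 TPM in VSMCs, 19 (86.4%) were higher in mcPCs, where the share of all such genes was 67.4%. The limit of 0.8 TPM in VSMCs is the one the authors used to filter their final set. They set it after finding endothelial transcripts more abundant in mcPCs than in VSMCs. Thus 19 of the 30 members higher in mcPCs are outside that final set.

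**Figure D1:**
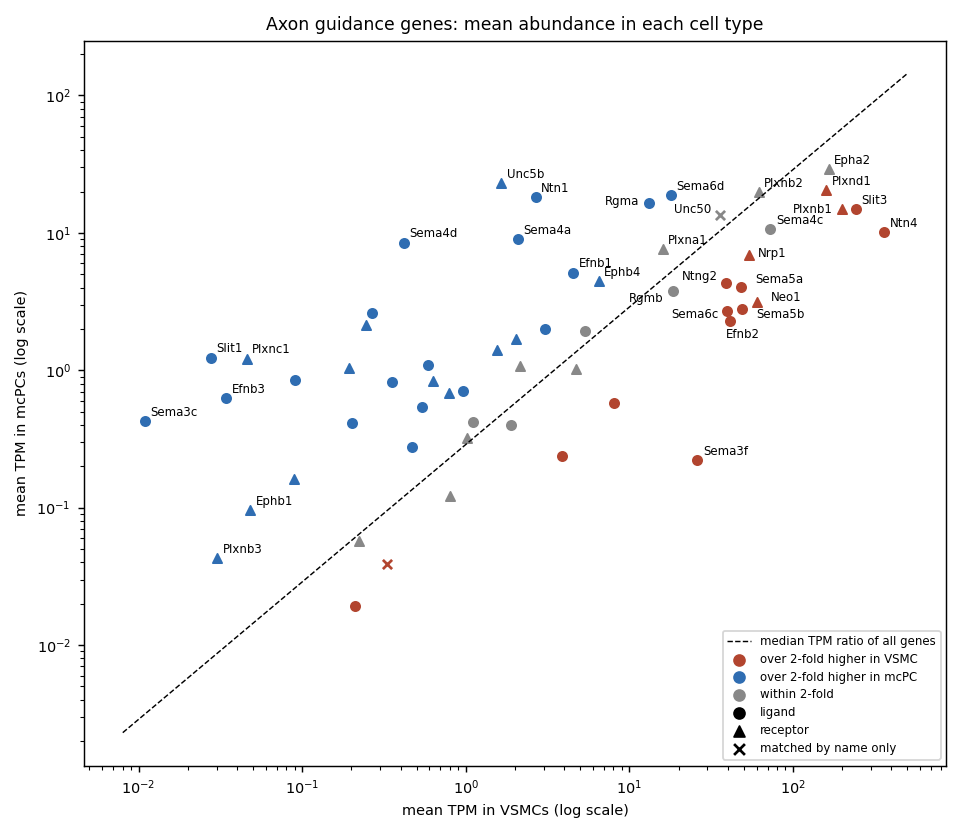
Mean TPM of the 60 guidance genes in VSMCs (x axis) and mcPCs (y axis), both on log scales, with colour for the 2-fold call on normalized counts and the dashed line at the median TPM ratio of all genes. Members higher in VSMCs lie mostly at the right, from Ntn4 at 362 TPM downward, and most members higher in mcPCs lie under 5 TPM on both axes.

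The 10 most abundant members in VSMCs were, in order, Ntn4, Slit3, Plxnb1, Epha2, Plxnd1, Sema4c, Plxnb2, Neo1, Nrp1 and Sema5b. In mcPCs they were Epha2, Unc5b, Plxnd1, Plxnb2, Sema6d, Ntn1, Rgma, Slit3, Plxnb1 and Unc50. Epha2, Plxnd1, Plxnb2, Plxnb1 and Slit3 were in both orders. Of the 60 members, 38 had at least 0.8 TPM in VSMCs and 40 in mcPCs. In both cell types 30 reached that level, and 12 did in neither. Of the 14607 listed genes, 12218 reached it in VSMCs, 11432 in mcPCs and 10860 in both, and 1817 in neither. Members thus reached this level less often than all genes in each cell type. TPM cannot be set directly between the cell types, so the VSMC and mcPC counts are not compared with each other.

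Upstream sequence is shown for 4 members on which the results turn, Ntn4 and Slit3, the most abundant guidance genes of VSMCs and higher there, and Unc5b and Sema6d, the most abundant of those higher in mcPCs. Each run is the 250 bases before the RefSeq start in GRCr8, which is not the build the reads were assigned to, and capitals mark TGGGAA (the core letters read by RBPJ, the Notch effector) and GGGCGG (the GC box) on either strand.
Ntn4: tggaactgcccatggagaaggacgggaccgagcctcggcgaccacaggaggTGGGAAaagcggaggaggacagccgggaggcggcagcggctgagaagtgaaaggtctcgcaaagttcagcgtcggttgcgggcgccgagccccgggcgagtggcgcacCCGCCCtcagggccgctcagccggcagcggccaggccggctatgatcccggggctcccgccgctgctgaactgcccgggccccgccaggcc
Slit3: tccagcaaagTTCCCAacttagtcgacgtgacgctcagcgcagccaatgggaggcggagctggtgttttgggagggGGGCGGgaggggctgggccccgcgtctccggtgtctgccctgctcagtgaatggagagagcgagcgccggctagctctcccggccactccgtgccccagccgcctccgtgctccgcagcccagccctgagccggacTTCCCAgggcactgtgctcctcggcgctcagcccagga
Unc5b: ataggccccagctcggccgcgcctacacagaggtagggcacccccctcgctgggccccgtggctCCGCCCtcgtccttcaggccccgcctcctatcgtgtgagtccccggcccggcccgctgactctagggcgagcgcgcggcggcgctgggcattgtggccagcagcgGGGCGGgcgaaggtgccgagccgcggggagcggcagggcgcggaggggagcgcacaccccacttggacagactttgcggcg
Sema6d: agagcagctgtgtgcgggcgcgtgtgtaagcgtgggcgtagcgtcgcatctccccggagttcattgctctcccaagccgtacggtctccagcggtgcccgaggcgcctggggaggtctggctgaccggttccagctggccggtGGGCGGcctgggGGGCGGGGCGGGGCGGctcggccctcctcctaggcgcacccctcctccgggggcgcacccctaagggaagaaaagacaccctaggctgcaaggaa
The positions are chr7:30073387-30073636 on the plus strand for Ntn4, chr10:20075679-20075928 on the plus strand for Slit3, chr20:29307271-29307520 on the minus strand for Unc5b and chr3:132337106-132337355 on the plus strand for Sema6d. Promoters of 300 bases, 250 before and 50 after the start, were at hand for 46 members, 47 in all since Robo1 has 2. TGGGAA was found in 10 of the 47 (21.3%) and in 25.7% of all 33469 promoters, and in 4 of 13 promoters of members higher in VSMCs (Efna1, Ntn4, Plxnb1 and Slit3) and 3 of 24 of those higher in mcPCs. GGGCGG was found in 28 of the 47 (59.6%) and 33.1% of all promoters, with 7 of 13 and 13 of 24 in the same order. The CArG box, the element read by serum response factor, was found in 2 of the 47 (Robo1 and Sema3c, both higher in mcPCs, Robo1 not on the TPM ratio) and in 1.64% of all promoters, and in 0 of the 13. The motifs were searched separately and GC boxes that overlap one another were each counted.

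The netrin family was led by different genes in the cell types. Netrin-4 (Ntn4, ENSRNOG00000005573), a basement membrane netrin that binds laminin, had 362 TPM in VSMCs, more than any other member, and 10.1 TPM in mcPCs. Its mean normalized counts were 20429 and 2059, a log2 ratio of -3.31 [-3.35 to -3.27] or 9.92-fold higher in VSMCs. Netrin-1 (Ntn1, ENSRNOG00000003947), the classical secreted guidance cue, had 2.68 TPM in VSMCs, against 18.2 TPM in mcPCs. Its normalized counts were 128 and 3019, a log2 ratio of 4.56 [4.43 to 4.69] or 23.6-fold higher in mcPCs. The log2 ratios of Ntn1 and Ntn4 were 7.87 apart. Ntn4 thus gave 99.1% of the family's TPM in VSMCs and 35.4% in mcPCs, and Ntn1 gave 0.735% and 63.6%. Ntn3 was low, at 0.469 and 0.279 TPM, with a log2 ratio of 1.06 [0.70 to 1.42] on normalized counts and a negative one on TPM.

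The leading netrin receptor differed between the cell types as well. Neogenin (Neo1, ENSRNOG00000006490), which also receives repulsive guidance molecules, had 60.1 TPM in VSMCs, against 3.12 TPM in mcPCs, with normalized counts of 7779 and 1407 (log2 ratio -2.47 [-2.52 to -2.41], 5.53-fold higher in VSMCs). Unc5b (ENSRNOG00000000567), a repulsive netrin receptor known from endothelial tip cells, had 1.65 TPM in VSMCs, against 23.1 TPM in mcPCs. Its normalized counts were 259 and 12867, a log2 ratio of 5.63 [5.55 to 5.72], or 49.6-fold higher in mcPCs. Neo1 gave 96.8% of the receptors' TPM in VSMCs and 11.8% in mcPCs, and Unc5b 2.67% and 87.4%. Unc5d was higher in mcPCs on few reads, 30 in VSMCs and 99 in mcPCs over 3 samples each (log2 ratio 2.56 [1.96 to 3.20]), and Unc5c did not pass 2-fold (-0.23 [-0.58 to 0.11]).

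The GPI-anchored netrin-G proteins, which bind partner proteins at synapses and not the netrin receptors, were higher in VSMCs. Ntng2 had 38.8 and 4.30 TPM (log2 ratio -1.40 [-1.47 to -1.33]) and gave over 99% of the pair's TPM in each cell type. Ntng1 had 99 reads in VSMCs and 17 in mcPCs (-1.64 [-2.47 to -0.89]). Of the repulsive guidance molecules, Rgma had 13.1 TPM in VSMCs, against 16.5 TPM in mcPCs and was 4.43-fold higher in mcPCs on normalized counts (log2 ratio 2.15 [2.10 to 2.20]). Rgmb had a log2 ratio of -0.48 [-0.59 to -0.38], within 2-fold. The share of Rgma in their summed TPM was 41.5% in VSMCs and 81.5% in mcPCs.

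**Figure D2:**
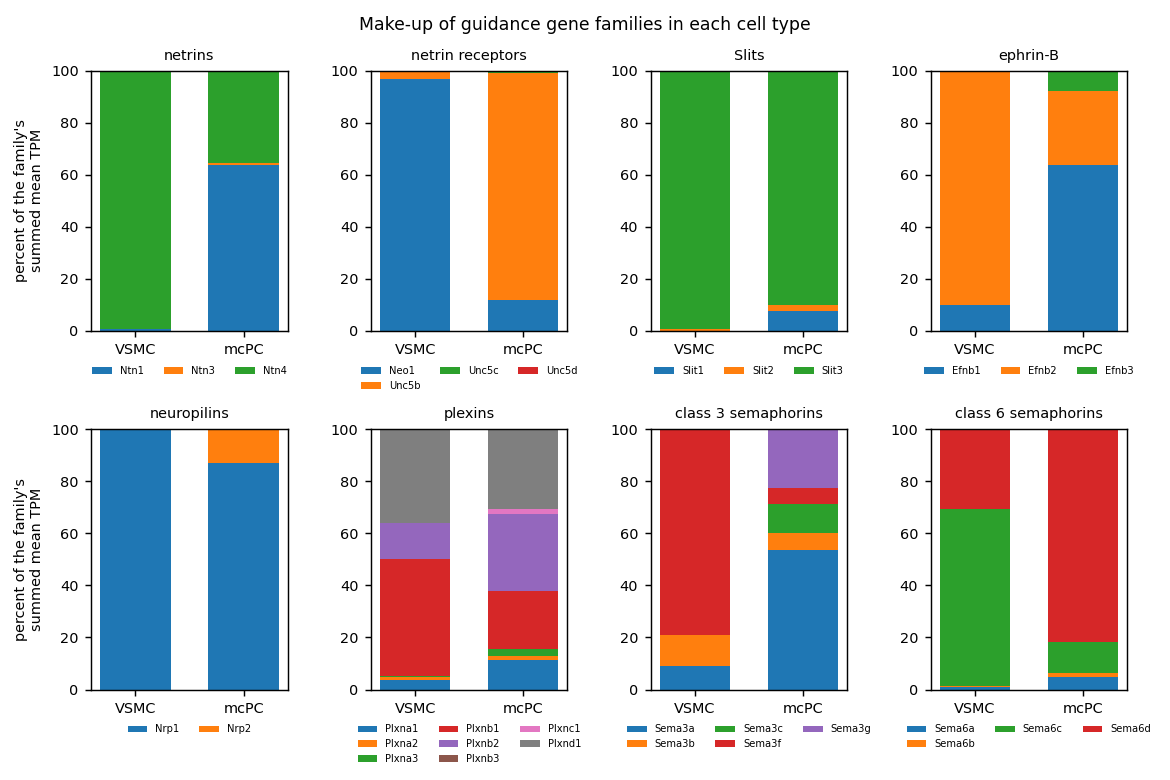
Stacked bars of the percent of each family's summed mean TPM given by each member in VSMCs and mcPCs, for 8 families. The leading gene differs between the cell types for netrins (Ntn4 and Ntn1), netrin receptors (Neo1 and Unc5b), ephrin-B (Efnb2 and Efnb1), plexins (Plxnb1 and Plxnd1), class 3 (Sema3f and Sema3a) and class 6 semaphorins (Sema6c and Sema6d), and is the same for Slits and neuropilins.

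Slit3 dominated the Slits in both cell types. It had 244 TPM in VSMCs, against 14.9 TPM in mcPCs, 99.2% and 90.1% of the TPM of the family, and normalized counts of 39144 and 8509 (log2 ratio -2.20 [-2.22 to -2.18], 4.60-fold higher in VSMCs). Slit2 did not pass 2-fold (-0.41 [-0.55 to -0.28]). Slit1 was near the limit of detection in VSMCs, with 15 reads over 3 samples, and had 1298 reads and 1.23 TPM in mcPCs (log2 ratio 7.36 [6.63 to 8.20]). The Robo receptors were low in both cell types. Robo2 had 0.247 TPM in VSMCs, against 2.15 TPM in mcPCs (log2 ratio 5.02 [4.75 to 5.29]), and Robo1 had 0.785 and 0.680 TPM (1.64 [1.47 to 1.81] on normalized counts, with the opposite sign on the TPM ratio). The summed TPM of Slits and of Robos was 246 and 1.03 in VSMCs, and 16.5 and 2.83 in mcPCs.

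**Figure D3:**
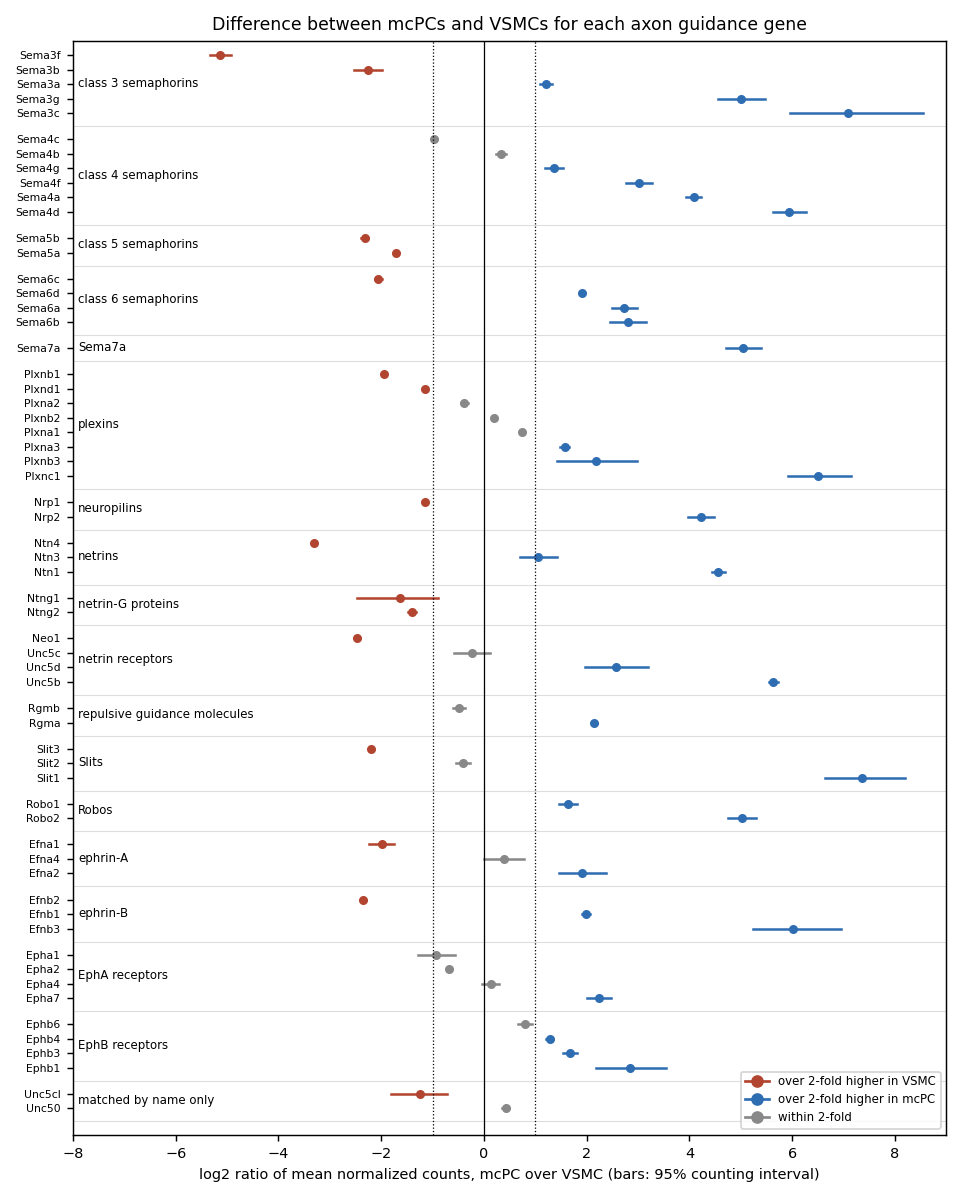
Log2 ratio of mean normalized counts, mcPC over VSMC, for the 60 members by family, with points for the ratio, bars for the 95% counting interval and dotted lines at 2-fold. Ratios run from -5.13 (Sema3f) to 7.36 (Slit1), and most families hold members on both sides of 0.

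Plexins were the most abundant receptor family of VSMCs, with a summed 445 TPM there and 66.6 TPM in mcPCs. Plxnb1, the receptor of Sema4d, had 200.3 TPM in VSMCs, against 14.8 TPM in mcPCs and was 3.87-fold higher in VSMCs (log2 ratio -1.95 [-1.97 to -1.93]). Plxnd1 had 159.9 and 20.4 TPM and was 2.23-fold higher in VSMCs (-1.16 [-1.18 to -1.14]). Plxnb2 (0.19 [0.17 to 0.21]), Plxna1 (0.74 [0.71 to 0.77]) and Plxna2 (-0.38 [-0.45 to -0.32]) lay within 2-fold, and on the TPM ratio all of them were lower in mcPCs. Plxnc1, the receptor of Sema7a, had 24 reads in VSMCs and 1204 in mcPCs over 3 samples each, and 1.21 TPM in mcPCs (log2 ratio 6.49 [5.91 to 7.14]). Plxna3 was 2.97-fold higher in mcPCs on normalized counts and lower there on the TPM ratio. Plxnb3 had 21 and 56 reads in all (2.18 [1.43 to 2.97]). In mcPCs, Plxnd1, Plxnb2 and Plxnb1 gave 30.6%, 29.8% and 22.3% of plexin TPM, so that Plxnb1 no longer led the family as it did in VSMCs with 45.0%.

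Neuropilin-1 (Nrp1), a co-receptor of class 3 semaphorins and of VEGF, had 53.8 TPM in VSMCs, against 6.92 TPM in mcPCs and was 2.21-fold higher in VSMCs (log2 ratio -1.15 [-1.18 to -1.11]). Nrp2 had 0.192 and 1.03 TPM and was 18.6-fold higher in mcPCs (4.22 [3.97 to 4.47]). Nrp1 still made up 87% of neuropilin TPM in mcPCs, against 99.6% in VSMCs.

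Among the secreted class 3 semaphorins, Sema3f, mainly a ligand of neuropilin-2, had the lowest ratio of all members. It had 26.1 TPM in VSMCs, against 0.221 TPM in mcPCs, with normalized counts of 2796 and 79.7 (log2 ratio -5.13 [-5.34 to -4.93], 35.1-fold higher in VSMCs). Sema3b was 4.76-fold higher in VSMCs (-2.25 [-2.54 to -1.98]). Sema3g (4.99 [4.55 to 5.47]) and Sema3c (7.09 [5.96 to 8.54]) were higher in mcPCs at 0.847 and 0.424 TPM, with 43 and 6 reads in VSMCs over 3 samples. Sema3a, a ligand of neuropilin-1, was 2.31-fold higher in mcPCs on normalized counts and lower there on the TPM ratio, at 3.04 TPM in VSMCs, against 2.01 TPM in mcPCs. It gave 9.18% of the class in VSMCs and 53.7% in mcPCs, while Sema3f gave 78.9% and 5.91%.

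Of the 6 class 4 semaphorins, which are transmembrane proteins, 4 were higher in mcPCs and none passed 2-fold on the VSMC side. Among all genes 22.0% and 13.9% were called so. Sema4d had 0.417 TPM in VSMCs, against 8.49 TPM in mcPCs, with normalized counts of 19.6 and 1196 (log2 ratio 5.93 [5.62 to 6.26], 61.2-fold). Sema4a had 2.08 and 9.02 TPM (4.08 [3.94 to 4.23], 16.9-fold). Sema4f (3.02 [2.77 to 3.28]) and Sema4g (1.36 [1.19 to 1.54], negative on the TPM ratio) had under 1 TPM in each cell type. The most abundant member, Sema4c, with 72.9 TPM in VSMCs, against 10.6 TPM in mcPCs, lay just short of 2-fold on the VSMC side (-0.98 [-1.03 to -0.93]), and Sema4b was at 0.33 [0.23 to 0.43], negative on the TPM ratio. Sema4d and its receptor Plxnb1 thus had ratios of opposite sign.

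Both class 5 semaphorins, transmembrane proteins with thrombospondin repeats, were higher in VSMCs. Sema5a had 48.3 and 4.06 TPM (log2 ratio -1.72 [-1.75 to -1.68]) and Sema5b 48.8 and 2.78 TPM (-2.32 [-2.39 to -2.25]). Of the class 6 semaphorins, ligands of class A plexins, Sema6c was higher in VSMCs at 39.6 and 2.72 TPM (-2.06 [-2.13 to -1.99]). Sema6d had 18.0 TPM in VSMCs, against 18.9 TPM in mcPCs, with normalized counts of 2714 and 10173 (1.91 [1.87 to 1.94], 3.75-fold higher in mcPCs). Sema6a (2.73 [2.50 to 2.97]) and Sema6b (2.80 [2.45 to 3.14]) were higher in mcPCs at 1.10 and 0.412 TPM. Sema6c gave 67.8% of the class in VSMCs and 11.8% in mcPCs, and Sema6d 30.8% and 81.7%. Sema7a, which is anchored by GPI, had 0.267 and 2.61 TPM and was 32.9-fold higher in mcPCs (5.04 [4.71 to 5.39]), on the same side as its receptor Plxnc1.

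The ephrins, which are bound to the membrane of the sending cell, also split. Efnb2 had 41.0 TPM in VSMCs, against 2.27 TPM in mcPCs and was 5.12-fold higher in VSMCs (log2 ratio -2.36 [-2.42 to -2.29]). Efnb1 had 4.55 and 5.12 TPM and was 3.96-fold higher in mcPCs (1.99 [1.90 to 2.07]). Efnb3 had 13 reads in VSMCs over 3 samples and 0.626 TPM in mcPCs (6.02 [5.23 to 6.95]). Efnb2 gave 89.9% of ephrin-B TPM in VSMCs and 28.3% in mcPCs, and Efnb1 9.98% and 63.8%. Efna1, a ligand of EphA2, had 8.07 and 0.575 TPM and was 3.97-fold higher in VSMCs (-1.99 [-2.23 to -1.76]). Efna2 was higher in mcPCs at 0.541 TPM (1.90 [1.45 to 2.37]), and Efna4 lay within 2-fold (0.39 [-0.01 to 0.78], negative on the TPM ratio).

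Epha2 was the leading Eph receptor of both cell types. It had 166 TPM in VSMCs, against 29.2 TPM in mcPCs, the highest mcPC value of all members, and 98.5% and 95.8% of EphA TPM, and its ratio did not pass 2-fold (-0.68 [-0.70 to -0.66]). Epha1 (-0.92 [-1.29 to -0.57]) and Epha4 (0.13 [-0.04 to 0.30], negative on the TPM ratio) lay within 2-fold, and Epha7 was higher in mcPCs at 0.833 TPM (2.24 [2.01 to 2.48]). Ephb4, the receptor that pairs with ephrin-B2, had 6.48 TPM in VSMCs, against 4.44 TPM in mcPCs, so that it was 2.43-fold higher in mcPCs on normalized counts (1.28 [1.21 to 1.35]) and lower on the TPM ratio. It gave 63.3% and 63.4% of EphB TPM. Ephb3 was 3.18-fold higher in mcPCs, again lower on the TPM ratio, Ephb6 was at 0.80 [0.67 to 0.93], and Ephb1 had 24 and 93 reads in all (2.84 [2.17 to 3.55]). None of the 4 EphA and 4 EphB receptors was called higher in VSMCs. For so few genes that is not far from the 13.9% of all genes so called.

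Summed over a family and taken relative to the median TPM ratio of all genes, class 3 semaphorins (-1.35), class 5 semaphorins (-2.03), netrins (-1.88), netrin-G proteins (-1.38) and Slits (-2.10) had log2 ratios below -1. Robos (3.25), Sema7a (5.09), EphB receptors (1.25) and repulsive guidance molecules (1.15) were above 1, of which the last 2 were negative when the TPM ratio was not taken relative to that median. Class 4 (0.42) and class 6 semaphorins (0.46), netrin receptors (0.56), plexins (-0.94), neuropilins (-0.97), ephrin-A (-0.87), ephrin-B (-0.71) and EphA receptors (-0.67) lay between, and all of these were negative without it. Of the 34 ligands, 18 (52.9%) were higher in mcPCs, 11 (32.4%) in VSMCs and 5 in neither, with a median log2 ratio of 1.13. Of the 24 receptors, 12 (50%) were higher in mcPCs and 4 (16.7%) in VSMCs, with a median of 1.04. Beside the 22.0% and 13.9% of all genes, the share of receptors higher in VSMCs was near the background.

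Effective length, the transcript length estimated by Salmon and weighted by abundance within a gene, was not used to choose the members. It enters the calls only through the normalized counts. It was equal within 1 base in the cell types for 43 of the 60 members (71.7%) and for 75.5% of all genes. A gene with a single annotated transcript has the same value in both by construction. Such genes were not set apart, so the shares here include genes that could not differ. Among members with at least 10 reads per sample in both cell types, 5 of 53 (9.43%) differed by more than 0.2 on the log2 scale, against 2.70% of 13490 such genes. For Sema4d it was 2098 bases in VSMCs and 1234 bases in mcPCs, and for Sema4a 1627 and 2340 bases. Sema3f went from 3301 to 4107 bases, Sema5a from 8813 to 10294 bases and Unc5cl from 4025 to 4739 bases. The estimated mean length of these genes thus differed between the cell types, which TPM and the normalized counts both take into account. Some estimates rest on few reads over 3 samples, 38 for Unc5cl and 201 for Sema3f in mcPCs and 87 for Sema4d in VSMCs. Sema4a had at least 406 reads and Sema5a at least 9364 in each cell type. The lengths carry no error.

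Downstream and partner genes outside the families were counted from lists. Of 55 listed guidance signalling genes, 15 (27.3%) were higher in mcPCs and 12 (21.8%) in VSMCs, with a median log2 ratio of -0.14, so that the mcPC share was near the 22.0% of all genes and the VSMC share stood beside 13.9%. The lowest ratios were those of Enah (-2.85), an actin regulator, Ngef (-2.62), the ephexin that acts downstream of EphA receptors, and the kinase Abl1 (-2.55). The highest were Crmp1 (5.74), a collapsin response mediator, the kinase Pak1 (5.49) and Srgap3 (5.35), a Slit-Robo GTPase-activating protein. Of 16 listed co-receptors, other ligands and sheddases, 7 (43.8%) were higher in mcPCs and 3 (18.8%) in VSMCs, with a median of 0.70, negative on the TPM ratio and among genes with at least 0.8 TPM in VSMCs. Here the heparan sulfate proteoglycan Sdc4 (-5.56), the Nogo receptor Rtn4r (-1.98) and its partner Lingo1 (-1.41) were lowest, and the VEGF receptor Kdr (4.10), Flrt2 (3.70), a ligand of Unc5 receptors, and the adhesion molecule L1cam (3.32) were highest among genes with at least 100 reads.

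Markers of further cell types were also higher in mcPCs. In bulk RNA, fewer cells of a type and less RNA per cell cannot be told apart. Of the immature neuron genes 11 of 11 listed were higher in mcPCs (median log2 ratio 5.53, summed TPM 6.5 in VSMCs and 51.7 in mcPCs), of the microglia and macrophage genes 7 of 7 (5.56, 0.959 and 27.5 TPM) and of the endothelial genes 13 of 18 (4.05, 655.8 and 290.2 TPM). The same held for 5 of 7 astrocyte genes (3.27, with 1 higher in VSMCs, 27.6 and 23.6 TPM), 7 of 8 oligodendrocyte lineage genes (1.87, 20.4 and 21.8 TPM), 4 of 5 fibroblast genes (1.61, 141.9 and 186.6 TPM) and 16 of 16 erythrocyte genes (7.59). No listed marker was at 0, since listed genes have reads in every sample. The median mcPC level was 2.004 TPM for endothelial, 3.01 TPM for immature neuron and 2.28 TPM for microglia and macrophage genes, beside 1.15 TPM for the members higher in mcPCs. Unc5b, Sema6d, Ntn1 and Rgma exceeded Tubb3 (15.7 TPM), Ptprc (15.1 TPM) and Cldn5 (15.4 TPM) in mcPCs, whereas the other 26 members higher there did not. The endothelial genes Esam (183.9 TPM), Cd34 (32.4 TPM) and Slc2a1 (23.9 TPM) were above all 4. Esam, within 2-fold between the cell types, gave 487.3 of the summed endothelial TPM in VSMCs. Among the fibroblast genes, Slc6a13 (131.9 TPM) and Col1a1 (31.6 TPM) were also above these 4 members in mcPCs. Dcn (16.9 TPM) was above Rgma only, and Lum (4.86 TPM) and Dpt (1.36 TPM) were below all 4. The part of these further cell types in the ratios was not tested.

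**Figure D4:**
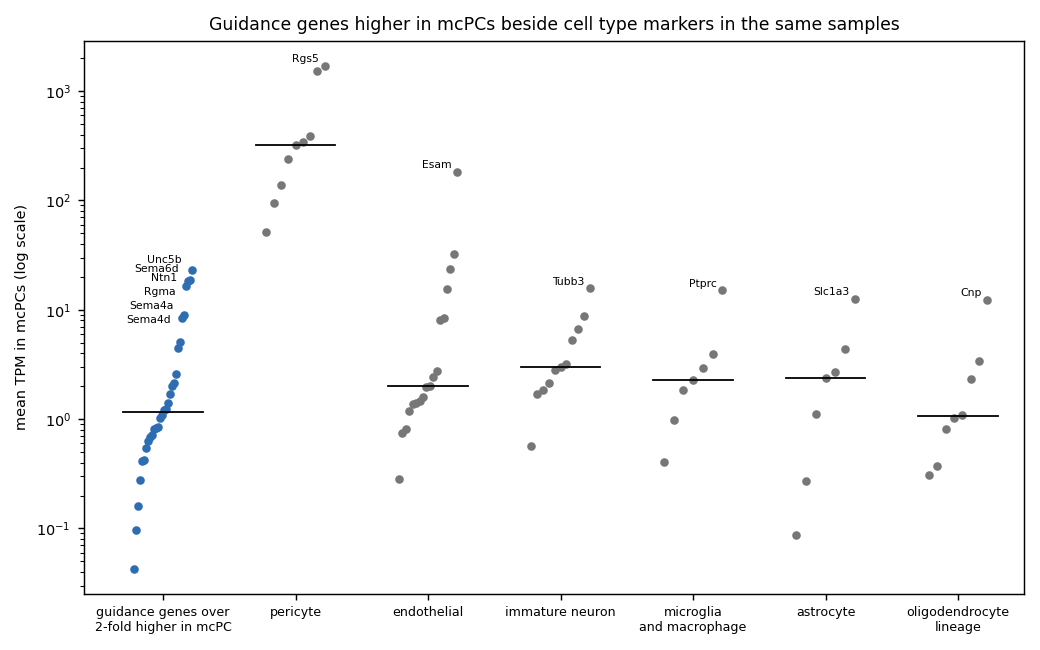
Mean TPM in mcPCs (log scale) of the 30 guidance genes higher there and of the listed markers of pericytes and other cell types, 1 point per gene and a bar at the median of each set. The smooth muscle, erythrocyte and fibroblast lists are not shown. The guidance genes have a median of 1.15 TPM, below the endothelial (2.004 TPM), immature neuron (3.01 TPM) and microglia and macrophage (2.28 TPM) medians. Of the guidance genes, 4 stand above 16 TPM.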

How the data were processed

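Messenger RNA of 3 VSMC and 3 mcPC samples, each in 4 runs, had been sequenced. The authors quantified reads with Salmon 0.8.0 on Rnor_6.0 transcripts, summed them per gene with tximport, normalized them with DESeq2 and deposited 1 table of the genes that every sample covers by 1 read or more. Its TPM values, its Salmon estimated counts per run, its normalized counts (a signal, counts over normalization factors) and its effective lengths are the authors' means of 3 samples. Of the estimated counts, 69.8% in VSMCs and 71.5% in mcPCs gave whole reads over 12 runs (within 0.01). Another 4 deposited columns hold the authors' comparison (log2 fold change, its standard error, p-value and adjusted p-value) and were not used.

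From the means, log2 ratios of normalized counts were taken with no pseudocount, a limit of 2-fold, and exact (Clopper-Pearson) conditional binomial intervals from reads summed over samples, which cover counting error only. The planned test on values per sample, leave-one-out and an isolation block were not run, since means allow none. Members and lists were chosen with earlier results of these data known. The members named are those past 2-fold with at least 100 reads, the 10 highest in TPM per cell type and those under 36 reads in a cell type, and the others complete their families. From the other lists the 3 highest and 3 lowest ratios with at least 100 reads are named. Markers were looked up by symbol, and Kdr is in 2 lists. Alternatives were other scalings, 1 or 10 counts added, filters and a 4-fold limit. Promoters came from RefSeq (GRCr8), and 14 members had none there. The steps were tested on simulated data with counting error only. The simulation held no variation between isolations and no erythrocyte or length difference, so it cannot speak to these. Scripts ran under Python 3.11.15 with scipy 1.17.1, pandas 2.3.3, numpy 2.4.6 and matplotlib 3.10.9.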

Additional observations from a re-analysis of the deposited data

How the results depend on the processing

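With the ratio of mean TPM, 14 members were higher in mcPCs and 30 in VSMCs and their median log2 ratio was -0.88. On that scale Sema3a (-0.60), Sema4g (-0.44), Plxna3 (-0.27), Ntn3 (-0.75), Robo1 (-0.21), Ephb3 (-0.15) and Ephb4 (-0.55) changed sign. The median of all genes was -1.79 on that scale, and erythrocyte transcripts made up 55.0% of mean TPM in mcPCs. How much of that shift the erythrocyte transcripts account for was not tested. The members' median was 0.33 with counts scaled to the same total, 0.82 with 10 counts added, 0.41 with at least 0.8 TPM in either cell type and 0.42 with at least 10 reads per sample. Keeping members with at least 0.8 TPM in VSMCs, which leaves out genes low there by construction, gave 11 higher in mcPCs and a median of -0.40. At 4-fold 8 were higher in VSMCs.

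Guidance signalling genes gave 7 higher in mcPCs and 40 in VSMCs with a median of -1.94 on the TPM ratio, 21 in VSMCs with a median of -0.69 at the same total, 8 in mcPCs with at least 0.8 TPM in VSMCs, and 9 in mcPCs and 6 in VSMCs at 4-fold. For co-receptors, other ligands and sheddases these were 4 and 8 with a median of -1.13 on the TPM ratio, 5 in VSMCs with a median of 0.13 at the same total, 1 in mcPCs with a median of -0.28 at 0.8 TPM in VSMCs, and 1 in VSMCs at 4-fold. Their list had 2 higher in mcPCs and a median of 0.22 at 0.8 TPM in either cell type, and a median of 0.54 with at least 10 reads per sample. Summed normalized counts gave 0.88 for class 6 semaphorins, 0.83 for netrin receptors and 1.66 for repulsive guidance molecules. Beyond the construction of each alternative the cause was not tested.

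Depth limits the ratios of Efnb3, Ephb1, Plxnb3, Plxnc1, Sema3c, Slit1 and Unc5d, with under 36 reads in VSMCs, and of Ntng1 in mcPCs. No paired analysis was possible because the values are means of each cell type, and for the same reason leaving out each sample in turn was not run.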
